A study of Mus musculus with 2 samples.

Results

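Peroxisomes are small organelles of the hepatocyte that shorten very long, branched and dicarboxylic fatty acids, finish the side chain of bile acids and oxidise urate and glycolate. Their oxidases hand electrons to oxygen and so make hydrogen peroxide, which catalase breaks down inside the same organelle. In beta-oxidation a bifunctional enzyme hydrates and dehydrogenates the chain, and a thiolase then releases the shortened acyl-CoA. The genes described here are 9 genes of this organelle, chosen by name: Ehhadh, Hsd17b4, Acaa1a, Scp2, Amacr, Cat, Uox, Hao1 and Pex19. A gene was kept if the platform annotation gave it at least 1 probe set that names no other gene. By this rule 8 of the 9 genes were measured, through 11 probe sets, out of 8251 named genes and 12488 probe sets on the array. Hao1, glycolate oxidase, had no such probe set and was not analysed here. Pex19 is not an enzyme; it is the import receptor for peroxisomal membrane proteins.

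Total RNA of mouse liver was measured on 2 single-colour oligonucleotide arrays, called replicates 1 and 2 after their titles. Both labels name the same purchased RNA, give no treatment, strain, sex or age, and list spleen as the source, so the group rests on the titles. Nothing in the labels says whether the arrays came from separate animals, so the spread between them may be technical only. The trimmed mean signal was 500.5 on each array, and 16 values were identical between them. All 6 hepatocyte markers, Alb, Apoa1, Ttr, Cps1, Tat and Serpina1c, were above the background defined below on both arrays. Of the other marker lists, 0 of 4 measured B and T cell genes, 0 of 6 kidney tubule genes and 4 of 6 macrophage genes were. Of all named genes, 25.8% were above this background on both arrays. A list of 22 pancreatic acinar genes was chosen after values had been seen. The median percentile of its 13 measured genes was 93.5, and 11 of them were above background. Among them were the digestive protease precursors Ctrb1 (22100.2 on replicate 1 and 22327.1 on replicate 2), Prss2 (8217.1 and 8127.3) and Cela1 (4793.9 and 5090.6) and the lipase Cel (4191.8 and 3867.3). Pnliprp2 (151.9 on replicate 1 and 209.7 on replicate 2) and Spink1 (16.8 and 51.7) were not above background. The summed signal of the 13 genes was 56719 on replicate 1 and 56015 on replicate 2. Of them 0 were at 0, but neither was any other deposited value. The part of pancreatic RNA in the values below was not tested. With 1 group there is no contrast between conditions, and the values below describe the liver RNA and the spread between its 2 arrays. Because this is bulk RNA, the number of cells of a type and the RNA per cell cannot be told apart. Signal is in arbitrary units that depend on each probe's own sequence. A percentile places a gene's signal within the array and keeps that dependence. Neither value ranks the transcript levels of different genes against each other.

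To show the DNA at the start of these genes, the RefSeq promoter window (250 bases before to 50 after the annotated start, build GRCm38.p6) was read for Acaa1a, Cat and Uox, bright genes whose windows differ widely in base composition. A window was given for 5 of the 8 genes, namely these and Ehhadh and Scp2; Hsd17b4, Amacr and Pex19 were not analysed here. Capitals mark matches to CCAAT, to GGGCGG, or to the TATA-box core TATAA, on either strand. A capital ATTGG is the first of these motifs, read on the opposite strand. The Acaa1a window lies at chr9:119341044-119341343 on the plus strand, the Cat window at chr2:103485104-103485403 on the minus strand and the Uox window at chr3:146596899-146597198 on the plus strand.
Acaa1a: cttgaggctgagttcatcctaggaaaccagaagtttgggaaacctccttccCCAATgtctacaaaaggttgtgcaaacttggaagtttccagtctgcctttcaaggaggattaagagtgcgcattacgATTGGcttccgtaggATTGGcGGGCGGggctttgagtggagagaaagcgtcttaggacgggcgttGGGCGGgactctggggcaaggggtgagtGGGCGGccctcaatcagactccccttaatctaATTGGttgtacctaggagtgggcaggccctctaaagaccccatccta
Cat: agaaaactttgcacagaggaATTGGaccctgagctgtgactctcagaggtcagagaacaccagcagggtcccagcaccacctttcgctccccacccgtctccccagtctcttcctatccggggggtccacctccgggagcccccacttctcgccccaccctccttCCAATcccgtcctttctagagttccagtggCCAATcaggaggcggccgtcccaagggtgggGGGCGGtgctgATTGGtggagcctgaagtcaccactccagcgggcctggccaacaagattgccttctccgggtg
Uox: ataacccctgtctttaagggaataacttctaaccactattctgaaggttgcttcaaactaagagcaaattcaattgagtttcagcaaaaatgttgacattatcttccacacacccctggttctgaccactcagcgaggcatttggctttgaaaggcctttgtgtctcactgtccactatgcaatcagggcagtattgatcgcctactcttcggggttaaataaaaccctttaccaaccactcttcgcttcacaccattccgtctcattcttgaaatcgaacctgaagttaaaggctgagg

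The Acaa1a window held 4 CCAAT matches, 1 forward and 3 reverse, and 3 GGGCGG matches. The Cat window also held 4 CCAAT matches, 2 on each strand, with 1 GGGCGG match. The Uox window held neither, and none of the 3 windows held TATAA. Matches did not overlap one another in any of them. Of 32851 promoter windows of this length, 37.4% held CCAAT, 35.7% GGGCGG and 24.9% TATAA on either strand. Guanine and cytosine made up 53.3% of the Acaa1a window, 62.0% of the Cat window and 43.0% of the Uox window, against a median of 52.7% over all windows. The Ehhadh and Scp2 windows were at 60.7% and 57.3%. AGGTCA, the half-site that nuclear receptors such as PPAR alpha bind, stood in the Cat and Scp2 windows, 1 match each, and in 16.3% of all windows. The letters describe these windows only, and no binding or transcription start was measured in these samples.

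A background threshold was set on each array at the 95th percentile of 79 genes typical of brain, testis, retina and striated muscle. The thresholds were 512.6 (replicate 1) and 591.8 (replicate 2). All 8 measured genes were above it on both arrays, against 25.8% of all named genes (2129 of 8251). Their median percentile among all named genes was 97.0. Read singly, the median was 97.2 on replicate 1 and 96.9 on replicate 2. The 5 brightest by percentile, Scp2, Uox, Acaa1a, Hsd17b4 and Cat, stood between percentiles 96.7 and 99.4, and Amacr, Ehhadh and Pex19 stood below them. These counts come with no test, since the genes were chosen by name.

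The bifunctional enzymes were read from 1 probe set each. Hsd17b4, the D-bifunctional enzyme, which handles very long and branched chains and bile acid intermediates, gave 6691.6 on replicate 1 and 6717.0 on replicate 2 (mean signal 6704 ± 18.0, SD, n = 2 arrays), at percentile 97.3. Ehhadh, the L-bifunctional enzyme, known for its strong induction by PPAR alpha agonists and for acting on dicarboxylic acids, had 682.7 and 686.7 (685 ± 2.83), at percentile 76.9. The arrays gave nearly the same value for both genes. Hsd17b4 was at least 11.3 times the threshold on either array, whereas Ehhadh was 1.33 times it on replicate 1 and 1.16 times it on replicate 2, so its place above background depends on where that threshold is put. At the 99th percentile of the same 79 genes the thresholds were 1026 and 933.9, and Ehhadh lay below both.

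The thiolase step was represented by Acaa1a and Scp2. Acaa1a, the straight-chain 3-ketoacyl-CoA thiolase, had 8982.3 on replicate 1 and 9016.3 on replicate 2 (8999 ± 24.0, SD, n = 2 arrays), at percentile 98.1. Mouse has a near-identical copy, Acaa1b, whose 2 probe sets gave 20333.0 and 21708.1 (99571_at) and 5633.8 and 6516.6 (102004_at) on replicates 1 and 2. Probe sets of such copies may pick up either transcript, so the Acaa1a signal cannot be assigned to that gene alone. Scp2, which encodes both a thiolase for branched chains and the lipid carrier sterol carrier protein 2, also had 2 probe sets. Its brighter set (93278_at) gave 20082.4 and 19306.4 (19694 ± 549), at percentile 99.4, and the other (95787_s_at) gave 11089.7 and 12366.0 (11728 ± 902). Both sets were far above the threshold, yet they moved in opposite directions between the arrays, by a log2 difference of -0.05 in the brighter set and 0.16 in the other (replicate 2 minus replicate 1, after removing the median difference). Which of the Scp2 transcripts each set reads is not given in the sources used here.

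Amacr, the racemase that turns branched acyl-CoA esters into the form that beta-oxidation accepts, varied most between the arrays among the 8 genes when each was read from its brightest probe set. With the mean of a gene's sets Pex19 varied more, with a log2 difference of -0.80 against 0.46 for Amacr. Amacr had 1430.9 on replicate 1 and 1967.4 on replicate 2 (1699 ± 379, SD, n = 2 arrays), at percentiles 88.2 and 91.2. Its signal differed 1.37-fold, or 0.46 on the log2 scale after the median shift. Of the 500 probe sets nearest to it in mean signal, 4.0% differed by more between the arrays. On each array its signal was at least 2.79 times the threshold.

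Among the enzymes that make or remove hydrogen peroxide, Uox was the steadier between arrays and Cat depended on the probe set. Uox, urate oxidase, which forms the crystalline core of rodent peroxisomes and is a pseudogene in humans, had 14043.5 on replicate 1 and 13978.7 on replicate 2 (14011 ± 45.8, SD, n = 2 arrays), at percentile 98.9. Cat, catalase, had 5769.8 and 5326.1 (5548 ± 314) in its brighter set 160479_at, at percentile 96.7. Its other set, 161877_f_at, gave 495.1 and 734.5 (615 ± 169), and so was below the threshold on replicate 1 and above it on replicate 2. The sets differed in direction between the arrays, with a log2 difference of -0.11 in the brighter set and 0.57 in the other. In this manufacturer's naming, the suffix f marks a set whose probes match a family of similar sequences.

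Red blood cells and their precursors also hold catalase, and RNA of that lineage was present. Of 4 measured red cell markers 2 were above background, Hba-a1, alpha-globin (24074.9 on replicate 1 and 24908.4 on replicate 2), and Alas2, the erythroid haem synthesis enzyme (2164.2 and 1730.4). Epb42, a membrane skeleton protein of the red cell, gave 41.7 and 210.3, and Klf1, an erythroid transcription factor, 234.2 and 367.8. No marker was at 0, but neither was any other deposited value. The summed signal of the 4 markers, most of it from Hba-a1, was 26515 on replicate 1 and 27217 on replicate 2. Their part in the Cat signal was not tested.

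Pex19 gave opposite readings from its 2 probe sets. The brighter, 95074_at, had 560.4 on replicate 1 and 719.4 on replicate 2 (640 ± 112, SD, n = 2 arrays), at percentile 75.2 and only 1.09 and 1.22 times the threshold. The other, 95073_at, had 21.1 and 5.4 (13.2 ± 11.1), far below the threshold on both arrays. The statement that Pex19 was above background rests on the brighter set alone, and with the mean of both sets the gene stood at percentile 33.5.

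**Figure D1:**
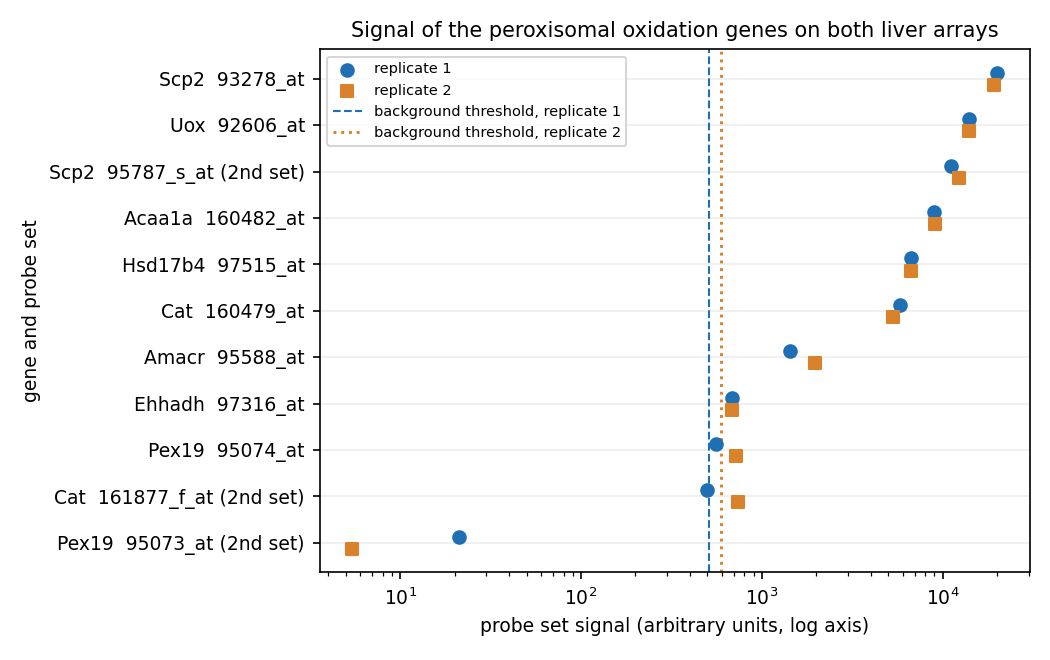
Signal of each of the 11 probe sets of the 8 measured genes (rows) on a log axis, with circles for replicate 1, squares for replicate 2 and dashed and dotted lines for the background threshold of each array (512.6 and 591.8). The second set of Pex19 lies far below the thresholds and that of Cat on either side of them (495.1 and 734.5), while the brighter set of each gene and both sets of Scp2 lie above the threshold of their own array. Pex19 on replicate 1 (560.4) lies between the lines.

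Between the arrays, the 8 genes differed by 1.00-fold to 1.37-fold in their brightest sets. After the median difference of the brighter 50% of probe sets was removed, 5 genes were higher and 3 lower on replicate 2, with a median log2 difference of 0.01. The median absolute log2 difference was 0.03 for the 8 genes and 0.18 for the 6211 brighter probe sets. Those sets include many at lower signal than most of the 8. The SD of the differences among sets of like signal was 0.13 near Scp2 and 0.29 near Ehhadh. None of the 8 differed over 2-fold in its brightest set, against 2.09% of the brighter probe sets (130 of 6211). At so low a share, a count of 0 in 8 is no trait of these genes. The second Pex19 set differed 3.91-fold, at signals far below the threshold. The difference of Uox was exceeded by 98.4% of the 500 probe sets nearest in signal, that of Ehhadh by 96.0%, that of Acaa1a by 92.8% and that of Hsd17b4 by 92.2%. Those of Scp2, Cat and Pex19 were exceeded by 68.4%, 38.6% and 15.0%. Amacr, at 4.0%, had the smallest such share of the 8, all read from their brightest sets. With 1 array on each side none of these differences has a replicate check.

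**Figure D2:**
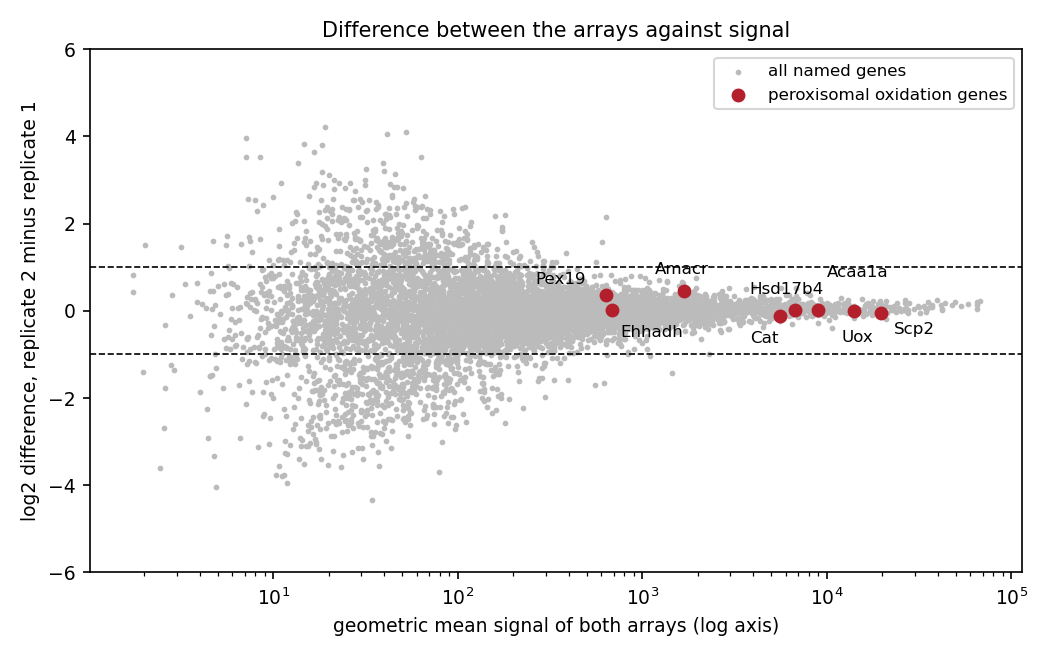
Log2 difference between the arrays (replicate 2 minus replicate 1, after the median shift) against the geometric mean signal on a log axis, for all named genes (grey) and the 8 measured genes (red), with dashed lines at 2-fold. All 8 lie between the dashed lines, with Amacr (0.46) and Pex19 (0.37) the highest.

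The wider peroxisomal setting was described from 8 lists, in which 52 of 86 genes were measured. Not all of their products lie in the organelle, since the lists also hold, for example, regulators and the cytosolic enzyme Xdh. Of these 52, 37 (71.2%) were above background on both arrays, and without the 8 genes above, 29 of 44 (65.9%), against 25.8% of all named genes. In the beta-oxidation list 12 of 13 measured genes were above it. They included Acaa1b, Scp2 and Slc27a2, which activates very long and branched chain fatty acids (9568.7 on replicate 1 and 9086.4 on replicate 2). The exception was the thioesterase Acot8 (234.3 and 317.6).

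Of 3 genes of alpha-oxidation and ether lipid synthesis 2 were above background. Phyh, which hydroxylates phytanoyl-CoA, had 14698.9 on replicate 1 and 15184.0 on replicate 2, at percentile 99, and the fatty aldehyde dehydrogenase Aldh3a2 had 4183.9 and 4171.2. Gnpat, the first enzyme of ether lipid synthesis, was not above it (354.5 and 237.5). Of 8 oxidases and peroxide-handling genes 5 were above it, led by Uox, Cat and Ephx2, soluble epoxide hydrolase (4954.1 and 4950.4). Dao, D-amino acid oxidase, was the dimmest at 126.5 and 50, below the threshold on both arrays. With each gene read from its brightest set, Dao alone in the 8 lists differed over 2-fold between the arrays (2.53-fold). Hao2, the relative of the unmeasured Hao1, gave 249.8 and 250 and was also not above background.

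The 3 measured genes of glyoxylate and urate handling were all above it. Grhpr, which reduces glyoxylate, had 6060.4 on replicate 1 and 5753.3 on replicate 2, and Agxt, the aminotransferase that turns glyoxylate into glycine, had 2578.6 and 2448.9. Xdh, which makes the urate that Uox oxidises and lies in the cytosol, had 618.8 and 764.2. Among 6 other matrix enzymes 5 were above it, with the protease Lonp2 (2451.3 and 3526.7), the isocitrate dehydrogenase Idh1 (2511.2 and 3072.5) and malonyl-CoA decarboxylase Mlycd (2174.3 and 2592.3) the highest by percentile, and mevalonate kinase Mvk (678.9 and 530.6) above it on replicate 1 alone.

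Membrane genes were split. Of 5 measured transporters and channels 3 were above background, namely Abcd3, an importer of long and branched acyl-CoA and bile acid intermediates (10269.5 on replicate 1 and 10586.3 on replicate 2), the channel protein Pxmp2 (6610.4 and 6899.9) and the cofactor carrier Slc25a17 (1653.8 and 1499.2). Abcd2, another acyl-CoA importer, was not (145.1 and 125.1). Of 8 measured peroxins, the proteins that build the organelle, 5 were above it. The median of the peroxin list lay at percentile 78.4. The genes above it included Pex11a, a factor of peroxisome division (2828.9 and 2976.3), the docking protein Pex14 (1926.7 and 2502.5) and the ATPase Pex6 (746.6 and 1031.2). Pex13, a docking partner of Pex14, gave 322.8 and 207.6. Of 6 regulators 2 (33.3%) were above background, a share near the 25.8% of all named genes. They were the fatty acid receptor Ppara (1600.6 and 1210.9) and its partner Rxra (875.4 and 1209.1). The coactivators Med1 (333.2 and 260.2) and Ppargc1a (74.5 and 48.0) were not above it.

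**Figure D3:**
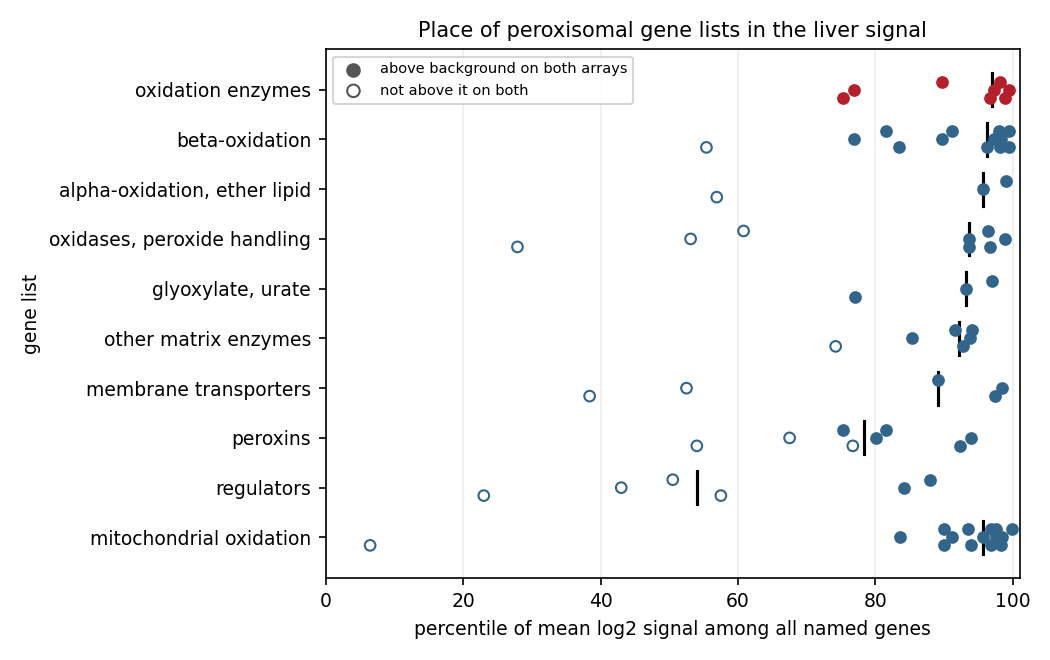
Percentile of each gene's mean log2 signal among all named genes for the 8 oxidation genes (red), the 8 peroxisomal lists and the mitochondrial oxidation list (blue), with filled points above background on both arrays, open points not, and a bar at each median. The list medians run from 54.0 for the regulators to 96.2 for beta-oxidation, and the 8 oxidation genes have a median of 97.0; vertical offsets within a row only separate points.

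Mitochondria carry the other beta-oxidation pathway of the hepatocyte, and its genes were set beside the peroxisomal ones. The peroxisomal beta-oxidation list had 12 of 13 measured genes above background and a median at percentile 96.2, and the mitochondrial oxidation list had 14 of 15 and a median at 95.6. The 8 genes chosen here had a median of 97.0. All 52 measured genes of the wider lists had one of 89.4, or 86.6 without the 8. The regulators, with a median of 54.0, are among the 52. The mitochondrial thiolase Acaa2, the counterpart of Acaa1a, had 33438.8 on replicate 1 and 35098.8 on replicate 2. Acadvl, an acyl-CoA dehydrogenase, gave 8.6 and 42.6 and was the exception. Other listed genes over 2-fold in their brightest sets were Acadvl, Epb42 (red cell), Cd79b (B cell receptor) and Spink1 (pancreatic list). Cd79b gave 15.3 and 134.6, and all of these genes lay below the threshold on both arrays. No difference between the pathways was tested, since different probe sets are not comparable in level.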

How the data were processed

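The deposited values are signal intensity on a linear scale, 1 per Affymetrix probe set and array. How they were scaled and summarised, and with what software and genome build, is not stated in the labels or the file. The authors' values were used as deposited, and all were above 0. Control probe sets and probe sets naming several genes or none were left out, which kept 10833 probe sets of 8251 genes. Symbols of 10817 matched a RefSeq table of assembly GRCm38.p6 by gene identifier and 0 changed. A gene was read from its brightest probe set by mean log2 signal. Percentiles ran over all named genes. The background used 79 measured genes of 88 listed. Array differences were log2 signals of replicate 2 minus replicate 1, less the median over the brighter 50% of non-control probe sets. With 1 group, no test was run and no p-value computed. The genes, lists and thresholds were chosen with earlier results of these data known. Named were all 8 genes, the 3 highest and the lowest of each peroxisomal list by percentile, listed genes over 2-fold between the arrays, and Acaa1b. Other genes were named after their values were seen: Hao2, Acaa2, the markers and the pancreatic genes. Scripts were tested on simulated data. Depth does not apply to arrays, and their number limits the precision. Protein sequences were planned for and not used here. Calculations ran in Python 3.11.15 with pandas 2.3.3 and numpy 2.4.6, and figures were drawn with matplotlib 3.10.9.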

Additional observations from a re-analysis of the deposited data

How the results depend on the processing

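Without suffixed probe sets, the count of the 8 genes above background stayed at 8. It was also 8 at the 90th percentile, with the highest bacterial or yeast control and on either array alone. Those settings are all less strict than the main one, so they could not lower the count. It was 6 at the 99th percentile (Ehhadh and Pex19 lost) and 7 when the sets of a gene were averaged (Pex19 lost). The share of all genes above background moved with the threshold, to 39.1% at the 90th percentile, 15.6% at the 99th and 64.4% with the highest control, against 25.8%. It was also 37.1% without suffixed probe sets and 32% when the sets were averaged. The count over the 8 peroxisomal lists ran from 28 to 50, and that of the peroxins was 2 at the 99th percentile and 8 with the highest control. Among the regulators these counts were 1 and 5, and among the transporters 5 with the highest control. The median percentile of the 8 genes was 95.2 with the mean of the probe sets and 97.4 without suffixed ones, beyond the spread between the arrays, and 96.9 to 97.2 on either array alone. Percentiles of single genes moved beyond the spread between the arrays in 16 of 40 recomputations, and with the mean of the probe sets Pex19 stood at 33.5 and Cat at 92.5. No gene of the 8 passed 2-fold under any of 4 alternatives. In 30 of 32 recomputations a gene's log2 difference moved from its reported value by less than the SD of probe sets of like signal. Many of these could hardly move. The median shift left out in 1 alternative was only -0.006, and averaging cannot change a gene with 1 probe set. With the mean of the probe sets, that of Cat was 0.23 in place of -0.11 and that of Pex19 -0.80 in place of 0.37. Over all non-control probe sets, 18.3% differed over 2-fold between the arrays. No paired analysis was possible because there is 1 group. Low signals limit Ehhadh and Pex19 most.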
